A study of Mus musculus with 15 samples.

Results

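Secretory progenitors of the mouse intestine gave 15240 ATOH1 peaks. Of these, 1098 had no open chromatin detected in progenitors, and had H3K4me2 detected in goblet cells but not in enterocytes. They were selected from peak lists by position. A member overlapped no DNase I hypersensitive site (DHS, the mark of open chromatin) of secretory or enterocyte progenitors, overlapped a goblet H3K4me2 peak by at least 1 bp, and overlapped no enterocyte H3K4me2 peak. The ATOH1, DHS, goblet and enterocyte lists therefore fixed the members, and what these 4 kinds of list say about them is a description. Stem cell and progenitor H3K4me2 and progenitor H3K27ac did not enter the choice.

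ATOH1 is a basic helix-loop-helix transcription factor that all secretory cells of the intestine require. In crypts, Notch signalling through the DNA-binding protein RBPJ keeps Atoh1 off in most progenitors, which become absorptive enterocytes, and cells that escape it keep ATOH1 and become goblet, enteroendocrine or Paneth cells. H3K4me2 is a histone mark of promoters and enhancers, and H3K27ac marks those that are active. Goblet cells make and release the mucus that covers the epithelium.

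All cells came from C57BL/6 mice. Goblet cells (GOB, 1 H3K4me2 library) were taken from villi of Rbpj-/- mice. Secretory progenitors (Sec-Pro) were enriched in crypts either by Rbpj deletion, as in 1 H3K4me2 library, or by dibenzazepine (DBZ), an inhibitor of Notch, as in the other. Enterocytes (ENT, 1 H3K4me2 library) and enterocyte progenitors (Ent-Pro, 2 H3K4me2 libraries) were taken from villi and crypts of Atoh1-/- mice, which have no secretory cells. Intestinal stem cells (ISC, 1 H3K4me2 library) were sorted for the green fluorescent protein of Lgr5-eGFP-Cre mice. Sec-Pro and Ent-Pro each had 1 H3K27ac and 1 DNase-seq library, and 1 Sec-Pro library served for ATOH1, precipitated with an antibody to FLAG. The labels do not say whether Rbpj deletion or DBZ gave the Sec-Pro for H3K27ac, DNase-seq and ATOH1, and no sort is stated for Sec-Pro. Goblet cells and enterocytes differed in genotype as well as in cell type, so lineage and genotype cannot be told apart. The same holds for progenitors, since Ent-Pro were Atoh1-/- and Sec-Pro came from Rbpj deletion or DBZ.

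The 12 lists held between 15240 peaks for ATOH1 and 92279 for H3K4me2 in DBZ-treated Sec-Pro. No source used here gives the number of reads, so the depth behind each list is unknown. The libraries fell into kinds by their shortest peak. It was 146 bp in ISC, DBZ-treated Sec-Pro, Ent-Pro replicate 1, GOB and ENT, 200 bp in Rbpj-/- Sec-Pro, Ent-Pro replicate 2 and both H3K27ac libraries, and 131 bp for ATOH1. The 146 bp progenitor lists were also the longer ones, with 92279 peaks for DBZ-treated Sec-Pro and 85881 for Ent-Pro replicate 1, against 63293 for Rbpj-/- Sec-Pro and 64138 for Ent-Pro replicate 2. The DHS lists, 1 library each, held 31980 peaks (15.0 Mb) in Sec-Pro and 38595 (17.5 Mb) in Ent-Pro, with a shortest peak of 200 bp. A site missing from a list was not detected there, which does not show that the mark was absent. A site without a DHS may likewise be open below detection.

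Members made up 11.8% of the 9267 closed ATOH1 peaks, meaning those without a DHS in either progenitor. Closed peaks marked in enterocytes and not in goblet cells numbered 182, or 1.96%. A further 3116 closed peaks were marked in both mature cells and 4871 in neither. Among the 5973 ATOH1 peaks with a DHS, 295 were marked in goblet cells and not in enterocytes. The goblet and enterocyte lists were of similar length, with 86922 and 88489 peaks. Of the goblet peaks, 21531 overlapped no enterocyte peak, and 5.32% of these lay over an ATOH1 peak (1146 peaks, Wilson 95% interval 5.03 to 5.63%). Of the 25823 enterocyte peaks that overlapped no goblet peak, 0.612% did so (158 peaks, interval 0.524 to 0.715%). All intervals given cover counting error only, not variation between animals, and since the rule used these lists the counts are not a test.

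The strongest member by the authors' ATOH1 score lay on chromosome 1 at 177442225 to 177442797 (mm9). It had a score of 205 and ranked 12 of all 15240 ATOH1 peaks. Its goblet peak, 219 bp long, scored only 5.34, and the nearest DHS was 19231 bp away. The site carried H3K4me2 in ISC and in DBZ-treated Sec-Pro and H3K27ac in Ent-Pro, and no peak in the other lists. The next strongest member, on chromosome 2 at 71826651 to 71827038, scored 188 and was marked by H3K4me2 in ISC, DBZ-treated Sec-Pro and Ent-Pro replicate 1. On chromosome 4 at 139146128 to 139147008 (score 169) and on chromosome 19 at 47296644 to 47297378 (score 160), the only earlier peak was H3K4me2 of DBZ-treated Sec-Pro. No gene annotation of build mm9 was used here, so no member is assigned to a gene, an exon or a promoter.

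Other strong members had quite different histories. On chromosome 8 at 127100578 to 127101028, an ATOH1 score of 124 went with H3K4me2 in DBZ-treated Sec-Pro, with H3K27ac in Sec-Pro and not in Ent-Pro, and with a goblet peak scoring 71.0. On chromosome 6 at 108479099 to 108479503 (score 123) and on chromosome 4 at 144737075 to 144737465 (score 116), Sec-Pro H3K27ac was the only earlier peak. On chromosome 5 at 124800915 to 124801455 (score 120), both Sec-Pro H3K4me2 lists, Ent-Pro replicate 1, ISC and both H3K27ac lists held a peak. That member lay in a goblet peak of 3884 bp, 97 bp from an enterocyte peak and 722 bp from a DHS. The strongest member with no earlier mark at all lay on chromosome 6 at 100139263 to 100139787, with an ATOH1 score of 103, a goblet peak scoring 7.99 and the nearest earlier peak 5051 bp away.

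Most members had a peak in at least 1 stem cell or progenitor list, with shares that differed widely between lists. H3K4me2 lay at 175 members in ISC, or 15.9% (interval 13.9 to 18.2%). It lay at 145 members in Rbpj-/- Sec-Pro, or 13.2% (11.3 to 15.3%), and at 574 in DBZ-treated Sec-Pro, or 52.3% (49.3 to 55.2%). In Ent-Pro, it lay at 454 members in replicate 1, or 41.3% (38.5 to 44.3%), and at 192 in replicate 2, or 17.5% (15.4 to 19.8%). The Sec-Pro library with the most marked members was thus above both Ent-Pro libraries, and the other Sec-Pro library was below both. At least 1 progenitor H3K4me2 list held a peak at 647 members, or 58.9%, and all 4 held one at 95, or 8.65%. Over all closed ATOH1 peaks, H3K4me2 lay at 23.9% in ISC, 29.6% in Rbpj-/- Sec-Pro, 42.2% in DBZ-treated Sec-Pro, 40.1% in Ent-Pro replicate 1 and 30.9% in Ent-Pro replicate 2. It lay in at least 1 progenitor list at 45.9% of them and in all 4 at 26.2%. Members were thus close to all closed peaks in Ent-Pro replicate 1, above them in DBZ-treated Sec-Pro, and below them in ISC, Rbpj-/- Sec-Pro, Ent-Pro replicate 2 and all 4 progenitor lists together.

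**Figure D1:**
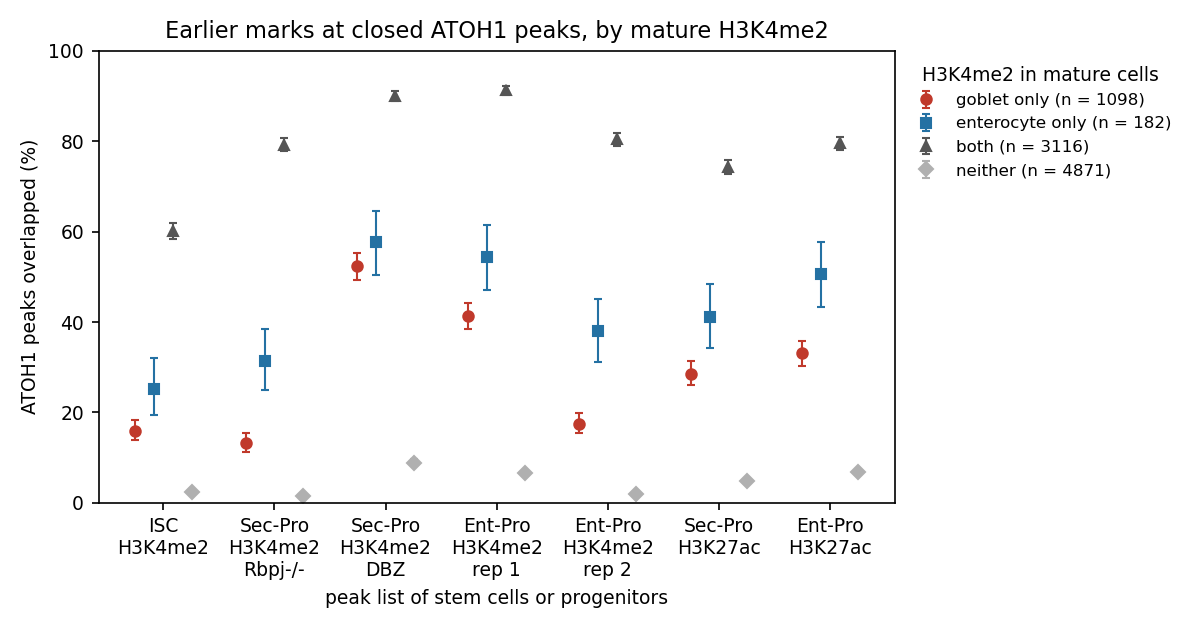
Share of closed ATOH1 peaks (%) overlapped by each stem cell or progenitor list, for goblet-only members (red, leftmost in each list), enterocyte-only, both and neither; bars are Wilson 95% intervals over peaks, 1 library per list. The members range from 13.2% in Rbpj-/- Sec-Pro to 52.3% in DBZ-treated Sec-Pro and lie between the peaks marked in both mature cells and those marked in neither.

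Compared with other closed ATOH1 peaks, members stood between those marked in both mature cells and those marked in neither, as the plot of shares by list shows. In ISC, 15.9% of members carried H3K4me2, against 60.1% of the peaks marked in both and 2.40% of those marked in neither. In DBZ-treated Sec-Pro, the shares were 52.3% of members, 90.0% of peaks marked in both and 8.85% of those marked in neither. In Rbpj-/- Sec-Pro they were 13.2% of members, 79.2% of peaks marked in both and 1.48% of those marked in neither. The 182 enterocyte-only peaks had higher shares than the members in all 7 lists. In Ent-Pro replicate 2, 17.5% of members were marked (15.4 to 19.8%), against 37.9% of enterocyte-only peaks (31.2 to 45.1%). In DBZ-treated Sec-Pro the intervals overlapped, with 52.3% of members and 57.7% of enterocyte-only peaks (50.4 to 64.6%). Members with no peak in any of the 7 earlier lists numbered 352, or 32.1% (29.4 to 34.9%), against 36 of the enterocyte-only peaks, or 19.8%, and 49.8% of all closed peaks. Goblet-only ATOH1 peaks with a DHS had shares near those of the members in most lists. H3K4me2 of ISC lay at 17.6% of those 295 peaks and that of DBZ-treated Sec-Pro at 55.9%, and 25.4% had no earlier peak.

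Whether members were marked more often in Sec-Pro than in Ent-Pro was tested over the 4 progenitor H3K4me2 libraries. The mean share of marked members was 32.7 ± 27.6% in Sec-Pro and 29.4 ± 16.9% in Ent-Pro (SD, n = 2 libraries each). The difference of 3.32 percentage points was smaller than the spread between libraries of either progenitor (two-sided exact permutation test, p = 1, the smallest possible being 0.333). Without DBZ-treated Sec-Pro the difference was -16.2 percentage points, without Ent-Pro replicate 2 it was -8.61, without Rbpj-/- Sec-Pro it was 22.9, and without Ent-Pro replicate 1 it was 15.3. Over all closed ATOH1 peaks with the 4 libraries the difference was 0.41 percentage points. Between libraries of 1 kind, DBZ-treated Sec-Pro minus Ent-Pro replicate 1 gave 10.9 percentage points and Rbpj-/- Sec-Pro minus Ent-Pro replicate 2 gave -4.28. Over all closed ATOH1 peaks the same differences were 2.16 and -1.34 percentage points. Each kind holds 1 library per progenitor, so neither value has a test, and Rbpj deletion, DBZ and library kind cannot be told apart. Nor can progenitor type and the loss of Atoh1 in Ent-Pro.

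How far Sec-Pro and Ent-Pro H3K4me2 coincided at single members depended on the libraries compared. Of the 454 members marked in Ent-Pro replicate 1, 386 (85.0%) were also marked in DBZ-treated Sec-Pro. Of the 145 marked in Rbpj-/- Sec-Pro, 135 (93.1%) were also marked in Ent-Pro replicate 1 and 100 (69.0%) in Ent-Pro replicate 2. Of the 574 marked in DBZ-treated Sec-Pro, 386 (67.2%) were also marked in Ent-Pro replicate 1 and 179 (31.2%) in Ent-Pro replicate 2. Of the 192 marked in Ent-Pro replicate 2, 100 (52.1%) were also marked in Rbpj-/- Sec-Pro. Of the 647 members with any progenitor H3K4me2, 180 had it in Sec-Pro and in no Ent-Pro library, and 66 in Ent-Pro and in no Sec-Pro library. These were 16.4% and 6.01% of all members, where 5.06% and 2.76% of all closed peaks had the same patterns. At 159 of the 180, DBZ-treated Sec-Pro was the only ISC or progenitor list with H3K4me2. Counted over all 4 libraries, 8 members (0.729%) had H3K4me2 in Rbpj-/- and DBZ-treated Sec-Pro alike and in no Ent-Pro replicate, where 0.248% of all closed peaks did. The opposite pattern was seen at 5 members (0.455%), where 0.335% of closed peaks had it. The strongest of the 8 lay on chromosome 19 at 41812551 to 41812877, with an ATOH1 score of 45.8, an ISC peak and a DHS 52 bp away. The strongest of the 5 lay on chromosome 11 at 105227269 to 105227737, with a score of 17.8 and no H3K27ac in either progenitor.

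Comparison within each kind of library left the other library of each progenitor out of account. A site counted here can thus be marked in the other progenitor by its other library. DBZ-treated Sec-Pro but not Ent-Pro replicate 1 marked 188 members, or 17.1%, where 5.20% of closed peaks had this pattern. The reverse held at 68 members, or 6.19%, where 3.04% of closed peaks had it. Rbpj-/- Sec-Pro but not Ent-Pro replicate 2 marked 45 members (4.10%, closed peaks 2.98%), and the reverse held at 92 (8.38%, closed peaks 4.32%). At 23 of the 45, DBZ-treated Sec-Pro and Ent-Pro replicate 1 also held a peak and ISC did not. At 53 of the 92, the same lists held a peak and ISC did not. The direction was opposite in the 2 kinds of library. The median ATOH1 score was 10.1 at the 188 members and 6.89 at the 68.

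**Figure D2:**
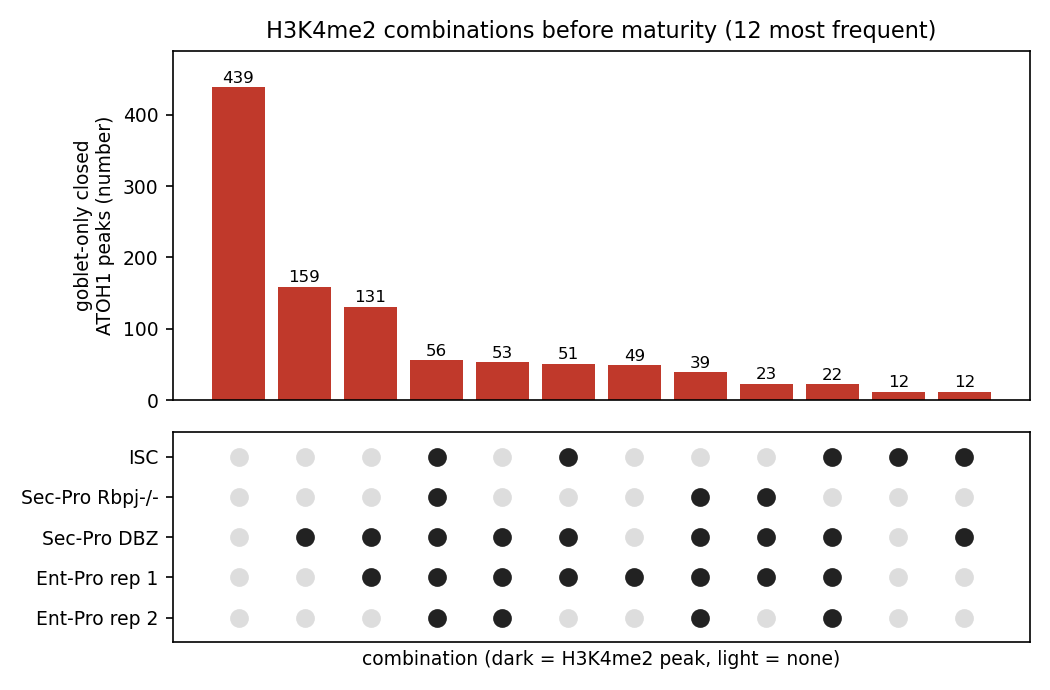
Number of goblet-only closed ATOH1 peaks (bars) with each combination of H3K4me2 peaks in 5 lists (dots below; dark, peak present), for the 12 most frequent combinations. No H3K4me2 peak in any of them is the most frequent (439 members), followed by DBZ-treated Sec-Pro alone (159) and DBZ-treated Sec-Pro with Ent-Pro replicate 1 (131).

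H3K4me2 over ISC and progenitors occurred in 23 of 32 possible combinations. No such peak was found at 439 members, or 40.0%, where 53.7% of all closed ATOH1 peaks had none. DBZ-treated Sec-Pro alone held one at 159 members, and DBZ-treated Sec-Pro together with Ent-Pro replicate 1 at 131. All 5 lists held a peak at 56 members, or 5.10%, where 19.3% of all closed peaks had this pattern. Of the 175 members marked in ISC, 155 (88.6%) were also marked in DBZ-treated Sec-Pro and 148 (84.6%) in Ent-Pro replicate 1. The other library of each progenitor marked fewer of them, 70 (40.0%) in Rbpj-/- Sec-Pro and 79 (45.1%) in Ent-Pro replicate 2. No progenitor H3K4me2 library marked 12 of them, or 1.09% of all members, where 0.378% of all closed peaks had this pattern. The ATOH1 score had a median of 9.50 at the 175 ISC-marked members.

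H3K27ac lay at 314 members in Sec-Pro, or 28.6% (26.0 to 31.3%), and at 363 in Ent-Pro, or 33.1% (30.3 to 35.9%). Over all closed ATOH1 peaks the shares were 31.7% in Sec-Pro and 35.2% in Ent-Pro, so members were at or slightly below the closed peaks as a whole. Both progenitors were acetylated at 234 members, or 21.3%, where 28.7% of closed peaks had this pattern. Sec-Pro alone was acetylated at 80 members, or 7.29%, where 2.99% of closed peaks had this pattern. Ent-Pro alone was acetylated at 129, or 11.7%, where 6.52% of closed peaks had it. The Sec-Pro minus Ent-Pro difference was -4.46 percentage points over members and -3.53 over all closed peaks, with 1 library each and no test. When a peak within 500 bp also counted, a setting added after the data were examined, the order turned, with 44.6% of members acetylated in Sec-Pro and 42.2% in Ent-Pro. H3K27ac without any earlier H3K4me2 peak was found at 87 members, or 7.92%, where 3.88% of closed peaks had this pattern. Median ATOH1 scores of the acetylated sets were 9.06 for Sec-Pro alone, 9.96 for Ent-Pro alone and 9.06 for both, and the median was 6.47 for members in no earlier list.

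Earlier peaks over members were of low to middling rank within their own lists. The median score percentile was 33.7 in ISC, 27.8 in Rbpj-/- Sec-Pro, 48.4 in DBZ-treated Sec-Pro, 43.7 in Ent-Pro replicate 1 and 26.6 in Ent-Pro replicate 2. For closed ATOH1 peaks marked in both mature cells the percentiles were higher in each list: 61.8 in ISC, 65.6 in Rbpj-/- Sec-Pro, 74.2 in DBZ-treated Sec-Pro, 73.6 in Ent-Pro replicate 1 and 65.6 in Ent-Pro replicate 2. In the same order they were 41.6, 35.7, 48.4, 41.9 and 24.5 for goblet-only peaks with a DHS. Enterocyte-only closed peaks had 46.2, 39.1, 54.4, 45.1 and 36.9, and those marked in neither had 30.6, 28.2, 37.2, 33.3 and 24.4. Low to middling ranks were thus not particular to members. H3K27ac peaks over members had a median percentile of 42.6 in Sec-Pro and 50.9 in Ent-Pro.

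The authors' ATOH1 score had a median of 8.01 at members (quartiles 5.04 and 15.0, range 2.24 to 205). It was 7.02 at enterocyte-only closed peaks, 7.31 at closed peaks marked in both, 5.57 at those marked in neither and 10.9 at goblet-only peaks with a DHS. When the whole ATOH1 list was divided by score into 5 bins of equal size, members made up 17.0% of closed peaks in the highest bin (299 of 1761), then 14.7%, 12.3%, 8.61% and 7.67% (158 of 2061) in the lowest. The share of goblet-only closed peaks thus increased with the ATOH1 score in every step. Enterocyte-only closed peaks made up between 1.31% and 2.53% in all 5 bins, with no order. The median ATOH1 peak length was 199 bp at members, 180.5 bp at enterocyte-only closed peaks and 176 bp over all closed peaks. A longer peak can more easily meet another list, and the part of length in these shares was not tested. Of the 100 ATOH1 peaks of highest score, 44 were closed and 10 were members. Of the 1000 of highest score, 548 were closed and 127 were members. In the whole list of 15240, 9267 were closed and 1098 were members.

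**Figure D3:**
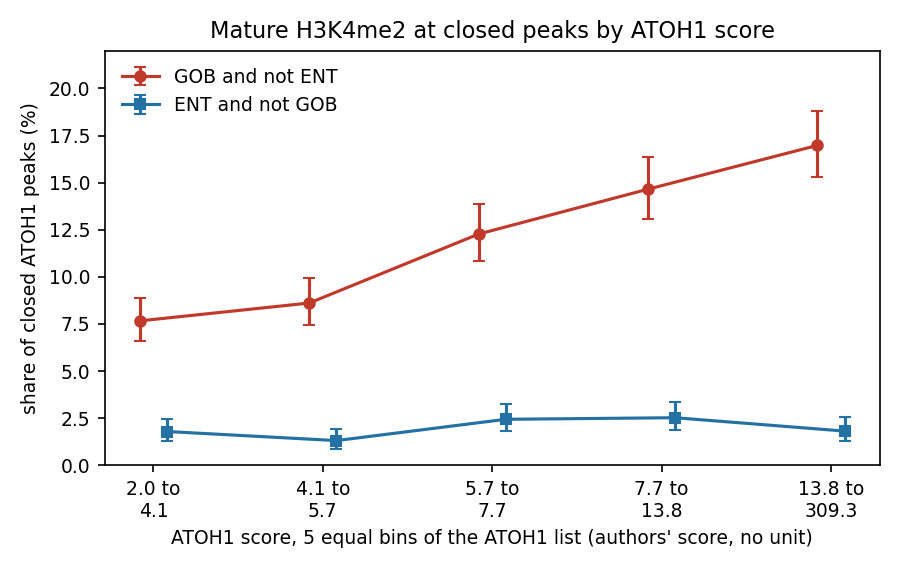
Members (GOB and not ENT, red) and enterocyte-only peaks (ENT and not GOB, blue) as a share of closed ATOH1 peaks (%), in 5 equal bins of the ATOH1 list by the authors' score, lowest at the left; bars are Wilson 95% intervals over peaks. The member share is 7.67% in the lowest bin and 17.0% in the highest, while the enterocyte-only share stays between 1.31% and 2.53%.

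The members lay in 1054 goblet H3K4me2 peaks, of which 1012 held 1 member, 40 held 2 and 2 held 3. For a member that touched several goblet peaks, the one of highest score was taken. These goblet peaks had a median length of 352.5 bp and a median score of 8.83, at percentile 39.9 of the goblet list. Most were therefore not among the strong goblet peaks. On chromosome 11, a goblet peak at 4574183 to 4576159 held 3 members with ATOH1 scores of 6.97, 8.17 and 38.4, all with H3K4me2 in every progenitor library and H3K27ac in both progenitors. On chromosome 7, a goblet peak at 17531547 to 17534062 held 3 members, all marked in DBZ-treated Sec-Pro and none acetylated in either progenitor. A goblet peak overlapped an enterocyte peak elsewhere along its length for 220 members, or 20.0%, so for these the goblet-only state concerned a stretch of a shared peak. It held a DHS elsewhere for 131 members, or 11.9%.

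Goblet peaks with and without a member were compared among those that overlapped no enterocyte peak. Of 847 such peaks over a member, 16.9% carried ISC H3K4me2, against 7.38% of 18839 such peaks with neither an ATOH1 peak nor a DHS. H3K4me2 of DBZ-treated Sec-Pro lay at 52.7% of the peaks over a member and 28.8% of those without ATOH1 and DHS. That of Ent-Pro replicate 1 lay at 39.7% of the peaks over a member and 24.4% of the others. The gap was smaller in Rbpj-/- Sec-Pro, with 13.1% of the peaks over a member and 9.17% of the others, and in Ent-Pro replicate 2, with 14.4% of the peaks over a member and 10.03% of the others. Sec-Pro H3K27ac lay at 29.8% of the peaks over a member and 18.7% of the others, and Ent-Pro H3K27ac at 31.4% of those over a member and 19.3% of the others. No earlier peak was found at 33.6% of the goblet peaks over a member and 54.6% of those without ATOH1 and DHS. The 228 goblet peaks that held both an ATOH1 peak and a DHS were near those over a member. ISC H3K4me2 lay at 21.1% of them, that of DBZ-treated Sec-Pro at 56.1%, and 26.8% had no earlier peak. These sets share peaks, because a goblet peak over a member may hold a DHS elsewhere. A further 1546 held a DHS and no ATOH1 peak. Ent-Pro replicate 1 marked 40.4% of these and Rbpj-/- Sec-Pro 14.6%, both slightly above the peaks over a member. Their shares were lower in ISC (5.95%), DBZ-treated Sec-Pro (36.3%) and Ent-Pro replicate 2 (12.4%). H3K27ac was also lower, at 10.5% in Sec-Pro and 15.8% in Ent-Pro, and 45.5% had no earlier peak. Compared with the goblet peaks without ATOH1 and DHS, those over a member were also stronger and longer, with a median score of 7.55 against 6.09 and a median length of 299 bp against 205 bp, and the part of this in the shares was not tested.

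Among the members themselves, progenitor H3K4me2 was more frequent at stronger goblet peaks. In 4 bins of equal size by goblet score, from the highest to the lowest, H3K4me2 of DBZ-treated Sec-Pro lay at 68.2%, 61.1%, 44.9% and 34.9% of members. In Ent-Pro replicate 1 the shares were 52.2%, 48.0%, 36.9% and 28.4%. Rbpj-/- Sec-Pro marked 21.2%, 14.2%, 10.6% and 6.91%, and Ent-Pro replicate 2 marked 28.1%, 19.6%, 11.3% and 10.9%. ISC H3K4me2, at 18.2%, 21.5%, 12.4% and 11.6%, and Ent-Pro H3K27ac, at 36.1%, 39.6%, 30.3% and 26.2%, were most frequent in the second bin from the top. The share with no earlier peak was 17.5% in the highest bin and 47.3% in the lowest. Length moved along with it, since the median goblet peak was 1561 bp long in the highest bin and 204 bp in the lowest. The goblet peak overlapped an enterocyte peak elsewhere for 59.5% of members in the highest bin and 2.55% in the lowest. The parts of length and of enterocyte overlap in the shares were not tested.

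**Figure D4:**
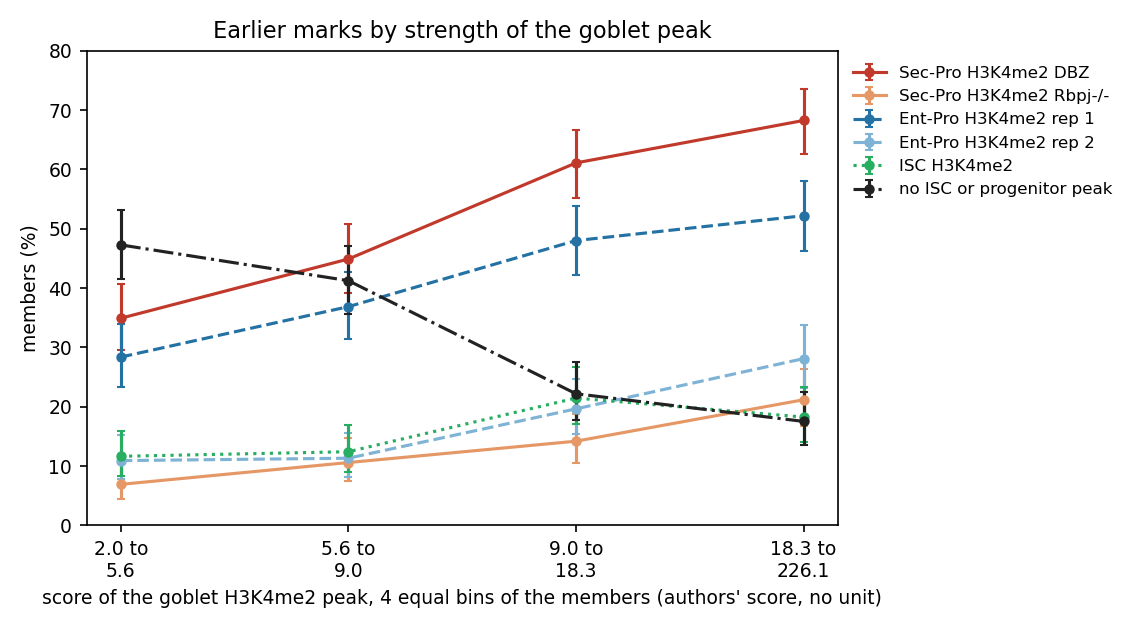
Share of members (%) with H3K4me2 in each stem cell or progenitor list and with no peak in any of the 7 earlier lists, in 4 equal bins by the score of their goblet H3K4me2 peak, lowest at the left; bars are Wilson 95% intervals over members. Marking in DBZ-treated Sec-Pro is 34.9% in the lowest bin and 68.2% in the highest, and the share with no earlier peak is 47.3% and 17.5%.

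The ATOH1 score was related to earlier marking in another manner. In 4 such bins by ATOH1 score, from the highest to the lowest, DBZ-treated Sec-Pro marked 64.6%, 55.3%, 49.6% and 39.6% of members. Rbpj-/- Sec-Pro marked 12.8%, 13.8%, 14.6% and 11.6%, and Ent-Pro replicate 2 marked 17.9%, 18.2%, 19.3% and 14.5%, so these lists showed no such order. Acetylated members became fewer at every step. Sec-Pro H3K27ac lay at 32.8%, 30.2%, 28.5% and 22.9%. The Ent-Pro H3K27ac shares were 40.1%, 34.5%, 33.9% and 23.6%. Ent-Pro replicate 1 marked 46.0%, 43.3%, 44.2% and 32.0%, and ISC H3K4me2 lay at 20.4%, 17.8%, 12.4% and 13.1%. These shares were higher in the highest bin than in the lowest, but not every step was downward. The share in no earlier list was 21.9% in the highest bin and 43.6% in the lowest. ATOH1 and goblet scores were unrelated across the members (Spearman's rho -0.009, n = 1098 sites, 1 library for each score, given as a description). The member in the strongest goblet peak, on chromosome 8 at 123058864 to 123058994, had an ATOH1 score of 4.88 and no earlier peak. It lay at the end of a goblet peak of 5620 bp, and an enterocyte peak was 72 bp away.

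**Figure D5:**
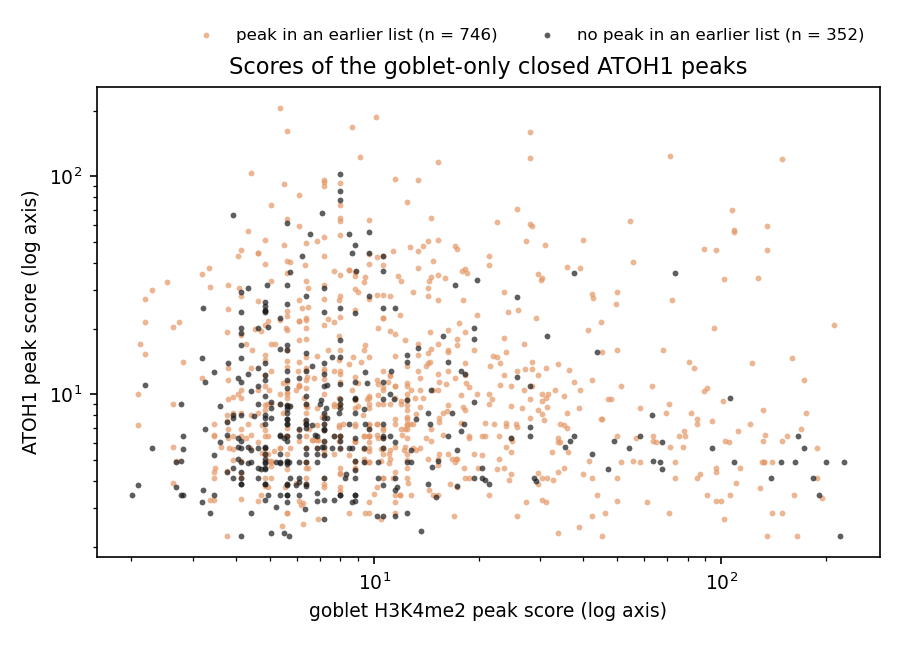
Authors' ATOH1 peak score against the score of the goblet H3K4me2 peak (both log axes, no unit), 1 point per member, coloured by a peak in any of the 7 earlier lists (orange, 746) or in none (black, 352). The points form no line, and strong ATOH1 peaks occur over both weak and strong goblet peaks.

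The rule left out every ATOH1 peak that overlapped a DHS, and distances describe what remained. The nearest DHS of either progenitor was a median of 4175.5 bp away (range 4 to 357514 bp), and 93 members (8.47%) had one within 500 bp. For enterocyte-only closed peaks the median was 6911 bp, with 4.40% within 500 bp, and for closed peaks marked in both mature cells it was 2066.5 bp, with 23.8%. The nearest enterocyte peak was a median of 2310 bp away, and 390 members (35.5%) had one within 1 kb. Members without an overlapping earlier peak were often near one. Of the 352 members in no earlier list, 129 (36.6%) had an earlier peak within 500 bp, and the median distance was 1331 bp. Another ATOH1 peak lay within 10 kb of 654 members (59.6%), compared with 61.9% of closed peaks marked in both mature cells, 58.0% of goblet-only peaks with a DHS, 48.3% of all closed ATOH1 peaks and 40.7% of enterocyte-only closed peaks. An ATOH1 peak with a DHS lay within 10 kb of 345 members (31.4%).

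Members were spread over all autosomes, from 101 on chromosome 11 downwards, with 5 on the X chromosome. As a share of the closed ATOH1 peaks there, they ranged among autosomes from 8.13% on chromosome 3 to 14.3% on chromosome 7. The limits of the rule were sharp at single sites. The member nearest to open chromatin, on chromosome 4 at 139091697 to 139092083, had a DHS 4 bp away, and a member on chromosome 9 at 57353712 to 57353936 had an enterocyte peak 1 bp away. A member on chromosome 7 at 125403328 to 125403559 shared 1 bp with its goblet peak. Just outside, the ATOH1 peak on chromosome 4 at 132641916 to 132642214, which lay wholly in a goblet peak, was no member because 1 bp of it was in an enterocyte peak.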

How the data were processed

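The authors deposited 1 peak list per library, with the position, name and an unnamed score of each peak and no header. The score served only to rank and describe peaks within a list. The submitters' processing notes name Bowtie 0.12.7, CASAVA 1.7 and MACS2 and the build mm9. Thresholds and the use of input DNA: not given in the sources used here. Of 15 samples, 12 have a list, and the 3 input samples were not analysed here. Overlaps of at least 1 bp were counted in Python 3.11.15 (NumPy 2.4.6, SciPy 1.17.1, matplotlib 3.10.9), tested on simulated peaks and checked against bedtools 2.31.1. Shares have Wilson 95% intervals. Sites are not replicates, so only the progenitor difference was tested, by exact permutation over 4 libraries. Nothing in the labels says that these libraries came from separate animals. Members and alternatives were chosen with earlier results of these data known. Named regions were those of highest ATOH1 or goblet score, overall and within each earlier pattern, those in the goblet peaks with most members, and those at the limits of the rule. Positions are 1-based. The only gene table is of a later build and was not used.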

Additional observations from a re-analysis of the deposited data

Results flagged for a closer look

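The difference between secretory and enterocyte progenitors had opposite signs in the libraries of either kind. DBZ-treated Sec-Pro minus Ent-Pro replicate 1, both with a shortest peak of 146 bp, gave 10.9 percentage points of members with H3K4me2, from 52.3% in the Sec-Pro and 41.3% in the Ent-Pro library. Rbpj-/- Sec-Pro minus Ent-Pro replicate 2, both with a shortest peak of 200 bp, gave -4.28 percentage points, from 13.2% in the Sec-Pro and 17.5% in the Ent-Pro library. The signs were opposite in some other classes too, given here with DBZ-treated Sec-Pro minus Ent-Pro replicate 1 first. The values were 2.16 and -1.34 over all closed ATOH1 peaks and 7.12 and -3.39 over goblet-only peaks with a DHS. They were 3.30 and -6.59 over enterocyte-only closed peaks and 2.30 and -0.53 over closed peaks marked in neither mature cell. Both values were negative over closed peaks marked in both mature cells (-1.22 and -1.25) and over all ATOH1 peaks with a DHS (-1.21 and -0.10). With 1 library per progenitor in each kind, the difference between the values was not tested. The Sec-Pro preparation and the kind of library cannot be told apart.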

How the results depend on the processing

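Counting only an overlap of at least 50% of the ATOH1 peak gave 13.0% of members in ISC, 10.5% in both Sec-Pro H3K4me2 lists, 24.0% in Sec-Pro H3K27ac and 36.0% in no earlier list. The upper 50% of ATOH1 peaks by score held 668 members, with 36.5% in Ent-Pro H3K27ac and 26.5% in no earlier list. With the upper 50% of the goblet list there were 421 members, of which 21.4% were in ISC, 19.5% in both Sec-Pro and 24.5% in both Ent-Pro H3K4me2 lists, 37.3% in Sec-Pro and 38.2% in Ent-Pro H3K27ac, and 18.1% in no earlier list. With no enterocyte peak within 1 kb, 708 members were left. Of these, 8.47% were in both Sec-Pro and 12.1% in both Ent-Pro H3K4me2 lists, 23.4% in Sec-Pro and 27.4% in Ent-Pro H3K27ac and 36.7% in no earlier list, and the median ATOH1 score was 8.95. Lists cut to equal length gave 20.2% in ISC, 20.2% in both Sec-Pro and 23.2% in both Ent-Pro H3K4me2 lists, 34.1% in Sec-Pro and 41.1% in Ent-Pro H3K27ac and 29.2% in no earlier list. The Sec-Pro minus Ent-Pro difference was -4.28 percentage points in the libraries with a shortest peak of 200 bp and 10.9 in those with 146 bp. Leaving out each progenitor library in turn, it ranged from -16.2 without DBZ-treated Sec-Pro, through -8.61 without Ent-Pro replicate 2, to 22.9 without Rbpj-/- Sec-Pro, the share in both Sec-Pro lists from 13.2 to 52.3% and that in both Ent-Pro lists from 17.5 to 41.3%. By construction, a share left with 1 library no longer needs both. These values have no test. After the data were examined, members in goblet peaks with no enterocyte overlap along their length were taken alone. They gave 9.23% in both Sec-Pro and 12.4% in both Ent-Pro H3K4me2 lists, 35.6% in no earlier list and a median ATOH1 score of 8.62. Counting an earlier peak within 500 bp as a mark, also added then, gave 29.6% in ISC, 28.4% in both Sec-Pro and 28.4% in both Ent-Pro H3K4me2 lists, 44.6% in Sec-Pro and 42.2% in Ent-Pro H3K27ac and 20.3% in no earlier list, so that Sec-Pro H3K27ac was above that of Ent-Pro. The central 200 bp of ATOH1 peaks, no DHS within 1 kb, autosomes alone and 1 member per goblet peak were also tried. None moved the shares, the median ATOH1 score or the progenitor difference by more than their spread. In that order these settings gave 1101, 925, 1093 and 1054 members, where the main setting gave 1098. Where no cause is named, the cause was not tested. No paired analysis was possible because the Sec-Pro libraries carry no replicate number. Read depth is unknown, so a peak absent from a list may lie below detection.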
